A study of Homo sapiens with 12 samples.

Results

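The interferon response genes are 42 genes that human cells typically switch on when an interferon binds its receptor, taken as a listed set by name, with older aliases accepted. Of these, 41 had a probe assigned to 1 gene (61 probes), and 31 had a probe above background on both arrays of at least 1 clone, of 12250 genes kept in all. STAT2, which no probe on the array represents by name, was not analysed here, and DDX58 is given under its current symbol RIGI. The genes were followed in 6 clones of PC9, a human lung adenocarcinoma cell line with an activating EGFR mutation, each grown from 1 sorted cell in DMEM with fetal bovine serum and measured on 2 Illumina bead arrays. Clone B7 is labelled sensitive to gefitinib, an inhibitor of the EGFR kinase, and the other 5 clones (D6, E1, E2, E3, E6) are labelled tolerant. All 12 samples carry the same treatment label, 0.4 to 2 µM gefitinib for 14 days, while the design text also describes plates given DMSO. The labels do not say if B7 met the drug or if the tolerant clones still had it at harvest, so response and exposure cannot be told apart. B7 is a single clone, and no label says that the 2 arrays of a clone came from separate cultures.

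Type I and type III interferons act through receptors with the kinases JAK1 and TYK2, which phosphorylate STAT2. A complex that holds STAT2 and IRF9 binds the interferon-stimulated response element in promoters, while type II interferon acts through a shorter element called GAS. The genes switched on include sensors of viral RNA, the ubiquitin-like protein ISG15 and its enzymes, enzymes and RNA binders that block viral replication, membrane proteins that block entry or release, and chemokines that attract T cells. Some are also transcribed without interferon, through basal IRF or STAT activity.

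RefSeq promoter windows (GRCh38.p14, 250 bases before to 50 bases after the start) were matched for 34 of the 41 genes with a probe. The response element core was searched as GAAA, any 2 bases, GAAA, and the GAS as TTC, any 3 bases, GAA, on both strands. The core was in a window of 23 of the 34 genes (67.6%), against 4.38% of 27305 genes with a window, and the GAS was in 11 (32.4%), against 9.38%. Among the genes kept on the arrays the core was found for 19 of 27, and among those with no kept probe for 4 of 7. The windows of the 2 genes that passed the clone-level test, UBE2L6 and IRF1, are printed first, then 2 genes with large differences between clones, IFI6 and BST2, and last IFIT1, a classical responder that stayed near background here. Capitals mark a match to either motif. They lie at chr11:57567886-57568185 (minus strand) for UBE2L6, chr5:132490724-132491023 (minus strand) for IRF1, chr1:27672143-27672442 (minus strand) for IFI6, chr19:17405581-17405880 (minus strand) for BST2 and chr10:89392373-89392672 (plus strand) for IFIT1, each written 5′ to 3′ along the gene.
UBE2L6: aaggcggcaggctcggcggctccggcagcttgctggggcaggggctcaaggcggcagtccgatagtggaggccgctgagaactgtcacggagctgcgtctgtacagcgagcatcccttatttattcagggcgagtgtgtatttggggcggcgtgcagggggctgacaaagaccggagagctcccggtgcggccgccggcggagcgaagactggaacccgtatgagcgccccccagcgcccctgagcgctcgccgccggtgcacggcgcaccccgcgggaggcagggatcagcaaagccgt
IRF1: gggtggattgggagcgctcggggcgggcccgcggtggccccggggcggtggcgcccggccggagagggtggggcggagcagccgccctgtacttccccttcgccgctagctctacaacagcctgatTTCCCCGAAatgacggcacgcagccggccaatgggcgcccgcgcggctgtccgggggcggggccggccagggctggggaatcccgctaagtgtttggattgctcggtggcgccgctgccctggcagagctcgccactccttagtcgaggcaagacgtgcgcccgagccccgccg
IFI6: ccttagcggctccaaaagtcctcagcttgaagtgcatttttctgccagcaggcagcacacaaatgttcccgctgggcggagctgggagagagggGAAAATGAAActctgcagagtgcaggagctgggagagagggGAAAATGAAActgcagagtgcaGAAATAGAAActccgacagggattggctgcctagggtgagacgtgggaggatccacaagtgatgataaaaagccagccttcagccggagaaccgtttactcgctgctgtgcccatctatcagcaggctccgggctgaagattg
BST2: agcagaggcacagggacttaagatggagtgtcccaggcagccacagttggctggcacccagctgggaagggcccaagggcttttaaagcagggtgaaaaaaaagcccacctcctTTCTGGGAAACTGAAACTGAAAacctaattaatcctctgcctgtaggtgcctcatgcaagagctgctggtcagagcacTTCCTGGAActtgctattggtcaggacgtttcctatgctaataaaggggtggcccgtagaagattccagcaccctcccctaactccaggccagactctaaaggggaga
IFIT1: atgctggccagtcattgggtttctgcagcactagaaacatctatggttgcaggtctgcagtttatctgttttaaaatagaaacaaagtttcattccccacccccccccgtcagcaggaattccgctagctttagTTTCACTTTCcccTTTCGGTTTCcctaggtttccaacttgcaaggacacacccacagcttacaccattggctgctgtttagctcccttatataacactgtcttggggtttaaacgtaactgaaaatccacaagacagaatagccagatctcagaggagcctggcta
The UBE2L6 window holds neither pattern of letters, and the IRF1 window holds 1 GAS match, starting at position -124 from the start. The IFI6 window holds 3 core matches, at -156, -115 and -93. The BST2 window holds 2 overlapping core matches at -130 and -124, a GAS match at -136 that overlaps the first of them, and another GAS match at -58. In the IFIT1 window both core matches, at -116 and -103, read on the opposite strand. A match of letters is a description and not a binding site.

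On the log2 scale of normalized intensity, where the lowest detected level on an array was 5.95 to 6.02, the members ran from background to well above it. The brightest was UBE2L6, at a mean of 11.17 over the 12 arrays, and the dimmest kept gene was IFIT1, at 5.77. In 12 of the 31 kept genes no clone mean reached 7, so these lay close to background in all 6 clones: IFIT1, IFIT2, IFIT3, IFIT5, IFI44, IFI44L, OAS3, OASL, RIGI, HERC5, HERC6 and CXCL10. Of all genes, 24.7% were that low. In 9 of the 31 a clone mean reached 9 or more, namely IFI6, IFI35, IFITM2, IFITM3, ISG15, IRF1, IRF9, BST2 and UBE2L6, against 42% of all genes. Probes are not equally sensitive, so these levels order arrays and not genes. The 10 genes with a probe that was not kept were IFI27, MX2, OAS2, CMPK2 and SAMD9L, detected on no array, RSAD2, DDX60, EPSTI1 and CXCL11, each detected on 1 array, and USP18, detected on 3. Their clone means ran from 4.15 to 6.04.

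**Figure D1:**
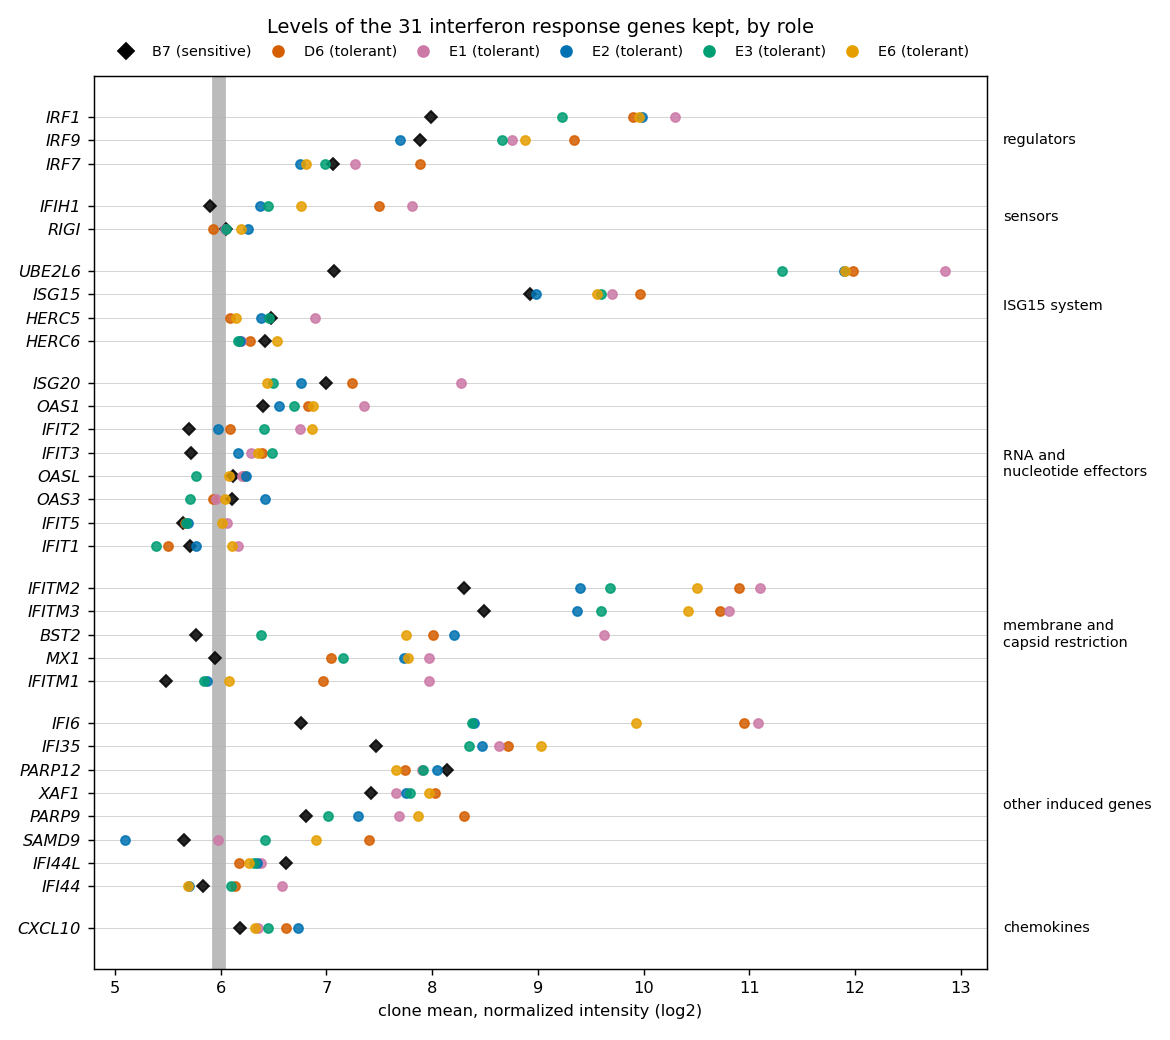
Clone means of the 31 kept genes, grouped by role and ordered by the mean of the tolerant clones. The x axis is normalized intensity on a log2 scale, black diamonds are the sensitive clone B7, coloured circles are the 5 tolerant clones, and the grey band spans the lowest detected level on the 12 arrays, 5.95 to 6.02. UBE2L6 in B7 stands at 7.07 and in the tolerant clones at 11.31 to 12.85, while the IFIT and OAS genes lie near the band.

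The sensitive clone gave brighter scans. The 75th percentile of the scanner signal averaged 131 intensity units in B7, 118 in E2, 104 in E3, 97.9 in E6, 94.5 in E1 and 80.2 in D6. The members' median difference from B7 was 0.67 in D6 and 0.77 in E1, the dimmest clones, and 0.37 in E3 and 0.28 in E2, the brightest tolerant ones. These medians include members kept only through tolerant clones. D6 was the highest tolerant clone for 6 of the 31 members and the lowest for 5, where it was highest for 17.1% and lowest for 19.5% of all genes. The part of brightness in the results was not tested beyond the scalings given in the closing section. Across genes, which are not independent replicates, arrays of 1 clone correlated at 0.995 to 0.997 (Pearson), and the SD between them was 0.14 log2 units (root mean square). Each sample is RNA of a whole clone, in which fewer expressing cells and less RNA per cell cannot be told apart. All 6 epithelial markers were detected on every array. Of 9 blood cell markers with a probe, PTPRC, CD3E, CD3D, TYROBP and HBB were detected on none. The 4 kept ones summed to 1330 linear intensity units in B7 against 1100 to 3610 in the others. Most of that was CD68, at 10.09 in B7 against 9.55 to 11.6 in the tolerant clones. CD14 stood at 6.46 in B7 against 7.23 to 8.52, and LYZ at 6.54 against 6.61 to 7.19, each detected on all 12 arrays. MS4A1, detected on 5 arrays, stood at 5.92 against 5.83 to 6.14. Of 6 fibroblast markers COL1A2, COL3A1, LUM and PDGFRB were undetected, and the 2 kept summed to 135 in B7 against 164 to 408 in the others. Of 4 endothelial markers VWF was undetected, and the 2 kept summed to 268 in B7 against 307 to 475 in the others. CDH5 stood at 6.22 in B7 against 6.74 to 8.05, and PECAM1 at 7.6 against 6.88 to 7.99. The part of these genes in the results was not tested.

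With 1 mean per clone, UBE2L6 and IRF1 were higher in the 5 tolerant clones than in B7, and no member was lower (limma on 6 clone means, Benjamini-Hochberg adjusted over all genes, called under 0.05). That is 2 of 31, where 1.4% of all genes were called higher and 1.44% lower. At an unadjusted p under 0.05, 8 were higher and 0 lower, against 12.4% of all genes higher and 12.8% lower. The test assumes that the lone B7 varies like the tolerant clones. The median difference of the 31 genes was 0.61 log2 units, against 0 for all genes, but 10 of the 31 were not detected on both B7 arrays and were kept only through tolerant clones. It was 0.42 against -0.06 among genes detected on both B7 arrays, and 0.24 against 0.01 with no filter. Single differences of the 31 ran from -0.32 to 4.92. In 13 of the 31 all 10 tolerant arrays lay above both B7 arrays, where 20.7% of all genes did so, and in 2, IFI44L and PARP12, all 10 lay below, where 22.1% did so. Among the 21 members detected on both B7 arrays, which could not pass the filter through the tolerant clones alone, 8 lay above on all 10 arrays and 2 below, against 20.1% and 24.9% of the 10859 such genes.

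IRF1, a transcription factor induced by interferon gamma that binds response elements by itself, was the only kept regulator called higher over the clones. Its gene lies at chr5:132481609-132490773. It read 8.02 and 7.96 on the B7 arrays, 9.91 and 9.88 (D6), 10.37 and 10.24 (E1), 10.06 and 9.93 (E2), 9.16 and 9.31 (E3), and 9.97 and 9.95 (E6). All 10 tolerant arrays lay above both B7 arrays, E1 was highest and E3 lowest. The difference was 1.89 ± 0.36 log2 units (SE, 5 clones against 1), or 3.7-fold (adjusted p = 0.0483). The call was close to the threshold and was lost without D6 (adjusted p = 0.101), E1 (0.0748) or E6 (0.111), or without the second E3 array (0.0573). It was also lost with no further background correction, a larger offset, median scaling or the authors' values (0.054 to 0.0665).

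IRF9, a DNA-binding part of the complex with STAT2, was not called. It read 7.99 and 7.78 in B7, 9.4 and 9.27 (D6), 8.62 and 8.89 (E1), 7.73 and 7.67 (E2), 8.65 and 8.67 (E3), and 8.91 and 8.86 (E6). D6, E1, E3 and E6 lay above B7 while both E2 arrays lay below it, so the groups overlapped. The mean difference was 0.78 ± 0.52 (adjusted p = 0.383).
IRF7, which amplifies interferon production, read 7.05 and 7.08 in B7, 7.84 and 7.94 (D6), 7.26 and 7.29 (E1), 6.67 and 6.82 (E2), 6.91 and 7.07 (E3), and 6.6 and 7.01 (E6). D6 lay above B7 by 0.83 ± 0.13 (array-level adjusted p = 0.000179). E1 was 0.21 ± 0.13 higher than B7 and not called (adjusted p = 0.168), and the other clones stood near or below B7. The mean difference was 0.08 ± 0.42 (adjusted p = 0.926).

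UBE2L6, the conjugating enzyme that passes ISG15 to its targets, had the widest range of all members. Its gene lies at chr11:57551662-57567935. It read 7.11 and 7.04 in B7, 11.98 and 11.99 (D6), 12.86 and 12.84 (E1), 11.9 and 11.9 (E2), 11.24 and 11.38 (E3), and 11.88 and 11.94 (E6). Every tolerant array lay far above B7. The fold was 30.2 in the test over clones (adjusted p = 0.00851). A second kept probe for the gene, detected on 11 of the 12 arrays, differed by 3.43 log2 units. Its B7 mean of 5.76 lay near background, so the size of that difference is uncertain. For UBE2L6, 1 more probe was detected on no array.

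No other member of the ISG15 system passed the clone-level test. ISG15 itself had clone means of 8.93 in B7, 9.97 in D6, 9.7 in E1, 8.98 in E2, 9.6 in E3 and 9.56 in E6, and its difference was 0.63 ± 0.34 (adjusted p = 0.292). E2 stood within 0.04 ± 0.1 log2 units of B7 (array-level adjusted p = 0.747), and the other 4 tolerant clones were higher than B7 at the array level. HERC5, the main ISG15 ligase in human cells, had clone means of 6.09 to 6.89, and HERC6, its relative, of 6.16 to 6.53. Neither was called over the clones. UBA7, which activates ISG15 ahead of UBE2L6 and is not among the 42 genes, was undetected in B7, and its tolerant mean was at least 1.35-fold above that (adjusted p = 0.198, not called).

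**Figure D2:**
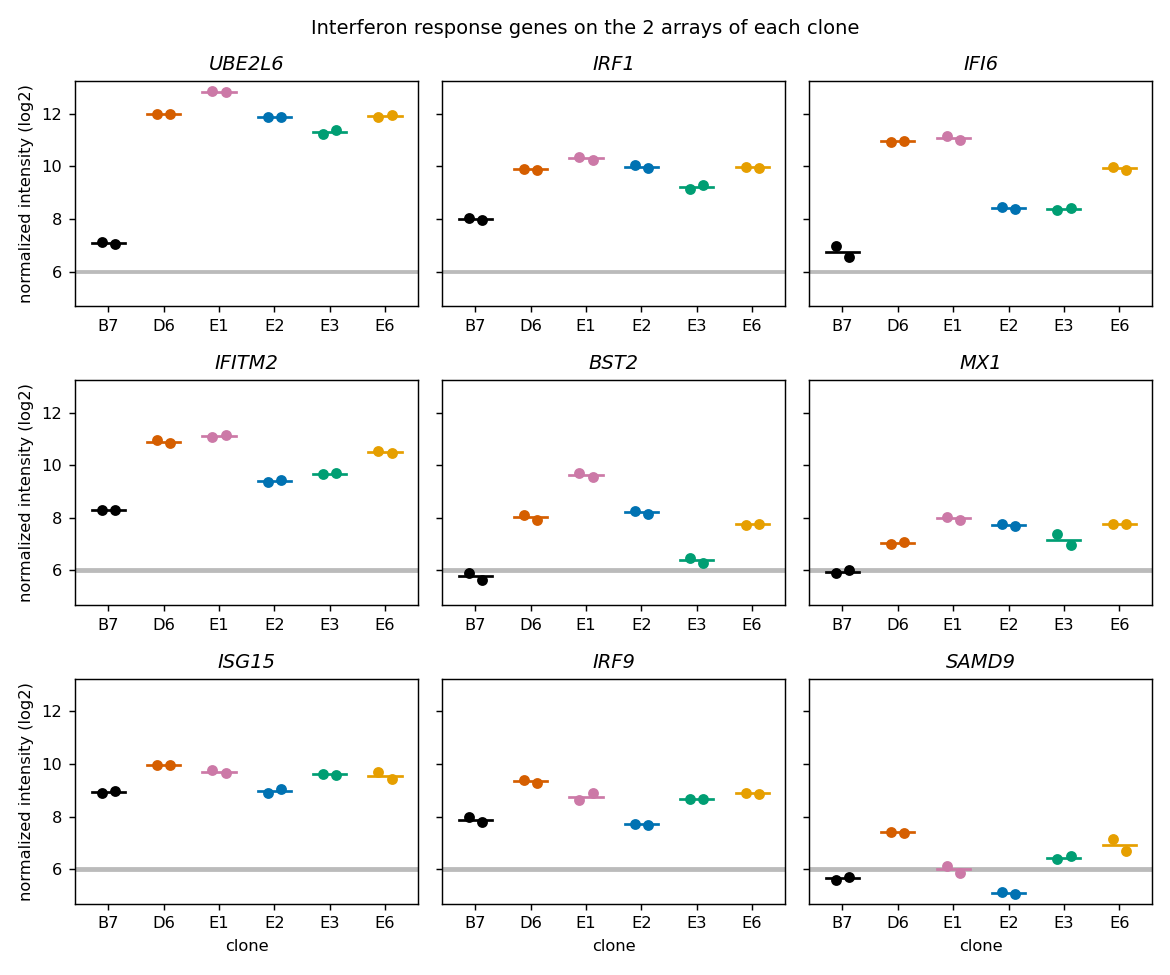
Normalized intensity (log2) of 9 interferon response genes on the 2 arrays of each clone. Points are arrays, short lines are clone means, and the grey band spans the lowest detected level on the 12 arrays. UBE2L6 and IRF1 lay above B7 on all 10 tolerant arrays. IRF9 in E2 stood near B7 (array-level adjusted p = 0.18), and SAMD9 was undetected in both.

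All 5 kept membrane and capsid restriction genes lay above B7 on all 10 tolerant arrays (20.7% of all genes did so), and none passed the clone-level test. IFITM1 and BST2 were detected on neither B7 array and MX1 on 1 of them, so these were kept only through the tolerant clones. IFITM2, which blocks the fusion of viruses in endosomes, read 8.31 and 8.28 in B7, 10.94 and 10.86 (D6), 11.06 and 11.14 (E1), 9.35 and 9.45 (E2), 9.66 and 9.7 (E3), and 10.55 and 10.47 (E6). D6, E1 and E6 stood well above E2 and E3. Its difference was 2.02 ± 0.64 (adjusted p = 0.122).
IFITM3, a close relative with the same function, read 8.6 and 8.38 in B7, 10.66 and 10.79 (D6), 10.78 and 10.85 (E1), 9.32 and 9.43 (E2), 9.67 and 9.53 (E3), and 10.44 and 10.39 (E6). The order of the clones was the same as for IFITM2. Its difference was 1.7 ± 0.57 (adjusted p = 0.135). IFITM2 and IFITM3 are near-identical in sequence, so a probe for one may also read the other, and their values are uncertain as separate measurements.
IFITM1, which acts mainly at the cell surface, read 5.23 and 5.72 in B7, 6.93 and 7.02 (D6), 7.88 and 8.06 (E1), 5.74 and 5.99 (E2), 5.94 and 5.74 (E3), and 6.17 and 5.98 (E6). It was undetected in B7 and in E3, so the order of those clones is one of values near background. E1 was at least 4.04-fold and D6 at least 2.03-fold above B7, while E2 and E3 stayed near background and were not called. The fitted differences, not these bounds, gave the array-level adjusted p of 1.86e-07 in E1 and 1.12e-05 in D6. Over the clones the difference was 1.07 ± 0.78 (adjusted p = 0.422). The 3 IFITM genes lie next to one another at chr11:307816-320860.

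BST2, also called tetherin, holds budding virus particles on the cell surface. It read 5.9 and 5.64 in B7, where it was undetected, 8.12 and 7.91 (D6), 9.69 and 9.56 (E1), 8.26 and 8.15 (E2), 6.48 and 6.28 (E3), and 7.71 and 7.78 (E6). The tolerant clones differed more among themselves than E3 differed from B7. For a bound, an undetected B7 array was set to its own value or to that array's lowest detected level, whichever was higher. The tolerant clones were at least 4.12-fold above B7 (adjusted p = 0.208), E1 at least 12.8-fold and E3 at least 1.34-fold (array-level adjusted p = 8.82e-10 and 0.000999). Here and wherever a bound is given, adjusted p-values are those of the fitted differences and not of the bounds.
MX1, a dynamin-like GTPase that traps viral capsids, read 5.9 and 6.01 in B7, 7 and 7.07 (D6), 8.02 and 7.93 (E1), 7.77 and 7.68 (E2), 7.37 and 6.95 (E3), and 7.76 and 7.77 (E6). B7 was at the limit of detection, with 1 of its 2 arrays above it. The difference was 1.58 ± 0.38 (adjusted p = 0.0727).

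Among the other induced genes, IFI6, a mitochondrial and endoplasmic reticulum protein that delays apoptosis, had the second-widest range. It read 6.97 and 6.54 in B7, 10.93 and 10.98 (D6), 11.15 and 11.01 (E1), 8.44 and 8.37 (E2), 8.34 and 8.42 (E3), and 9.98 and 9.88 (E6). The tolerant clones fell into levels near 11 (D6 and E1), near 10 (E6) and near 8.4 (E2 and E3). Its clone-level difference was 2.99 ± 1.1 (adjusted p = 0.157), and a second kept probe differed by 0.85.
SAMD9, a cytoplasmic antiviral and growth-restricting protein, read 5.58 and 5.71 in B7, where it was undetected, 7.41 and 7.39 (D6), 6.1 and 5.87 (E1), 5.14 and 5.07 (E2), 6.37 and 6.48 (E3), and 7.13 and 6.68 (E6). D6 was at least 2.73-fold, E6 at least 1.93-fold and E3 at least 1.38-fold above B7, and E2 was also below detection. The clone-level difference was 0.72 ± 0.75 (adjusted p = 0.583).
IFI35, a leucine zipper protein released as a danger signal, had a clone mean of 7.47 in B7 against of 8.35 to 9.03 in the tolerant clones, with no overlap. Its difference was 1.18 ± 0.27 (adjusted p = 0.0683). PARP9, an ADP-ribosyltransferase family member, had 6.81 in B7 against 7.02 to 8.3 in the tolerant clones. XAF1, which counters the apoptosis inhibitor XIAP, had 7.42 in B7 and 7.66 to 8.03. PARP12, an antiviral ADP-ribosyltransferase, went the other way, with 8.14 in B7 and 7.66 to 8.05, and IFI44L had 6.62 in B7 and 6.17 to 6.38. IFI44 had 5.83 in B7 against 5.69 to 6.58 in the tolerant clones. None of these 6 was called over the clones.

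IFIH1, the sensor of long double-stranded RNA also known as MDA5, read 5.99 and 5.82 in B7, 7.41 and 7.6 (D6), 7.9 and 7.72 (E1), 6.36 and 6.39 (E2), 6.65 and 6.25 (E3), and 6.7 and 6.81 (E6). All 10 tolerant arrays lay above B7, of which 1 array was above detection. The difference was 1.07 ± 0.56 (adjusted p = 0.272). RIGI, the sensor of RNA with a 5′ triphosphate, was dim in every clone, detected on 10 of the 12 arrays at clone means of 5.93 to 6.26.

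The 8 kept RNA and nucleotide effectors were mostly dim. IFIT1, which binds foreign RNA caps, read 5.67 and 5.76 in B7, 5.63 and 5.37 (D6), 6.21 and 6.11 (E1), 5.82 and 5.71 (E2), 5.23 and 5.54 (E3), and 6.29 and 5.92 (E6). It was detected on 3 of the 12 arrays. IFIT3, a partner of IFIT1, was detected on the 10 tolerant arrays and on neither B7 array, at clone means of 6.16 to 6.49 against 5.72, and the tolerant clones were at least 1.31-fold higher (clone-level adjusted p = 0.121). IFIT2 was undetected in B7 and reached 6.86 in E6 and 6.75 in E1. OAS1, which makes the second messenger that activates RNase L, had 6.4 in B7 against 6.55 to 7.36 in the tolerant clones. Its other kept probes, detected on 5 and 3 arrays, differed by 0.12 and 0.75. In the first of these E2 at 5.66 and E3 at 5.36 lay below B7 at 5.74. The OAS1 relatives OAS3 and OASL stayed at 5.71 to 6.42 and at 5.77 to 6.24, and IFIT5 at 5.64 to 6.06. ISG20, a nuclease that degrades single-stranded RNA, had clone means of 7 in B7, 7.24 in D6, 8.27 in E1, 6.76 in E2, 6.5 in E3 and 6.44 in E6, so that E1 lay above B7 and E3 and E6 below it. None of the 8 was called over the clones. CXCL10, a chemokine for activated T cells, was dim as well, at 6.18 in B7 against 6.33 to 6.73 in the tolerant clones.

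At the array level, B7 was compared with the tolerant clones 1 by 1. There p-values measure only the spread between the 2 arrays of a clone, and all 5 comparisons share the B7 arrays. E1 had 21 members higher and 1 lower (all genes 32.4% and 33.1%), E6 20 and 3 (30.1% and 31.2%), D6 19 and 3 (32% and 32.4%), E3 16 and 3 (29.5% and 30%), and E2 13 and 2 (24.4% and 22.7%). The members' median difference was 0.77 in E1, 0.67 in D6, 0.6 in E6, 0.37 in E3 and 0.28 in E2, while that of all genes was -0.01 to 0. Of the 31 members, 8 were detected on neither B7 array and 2 on 1 of them, and these were kept only through tolerant clones. The counts and medians include them, so the filter itself favours members that are higher than B7. In each of the 5 clones 10 members were higher than B7: IFIT3, IFI6, IFI35, IFIH1, IFITM2, IFITM3, MX1, IRF1, BST2 and UBE2L6. Of these, IFIT3 and BST2 were detected on neither B7 array, and MX1 and IFIH1 on 1. Of all genes, 14.6% were higher in each of the 5.

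**Figure D3:**
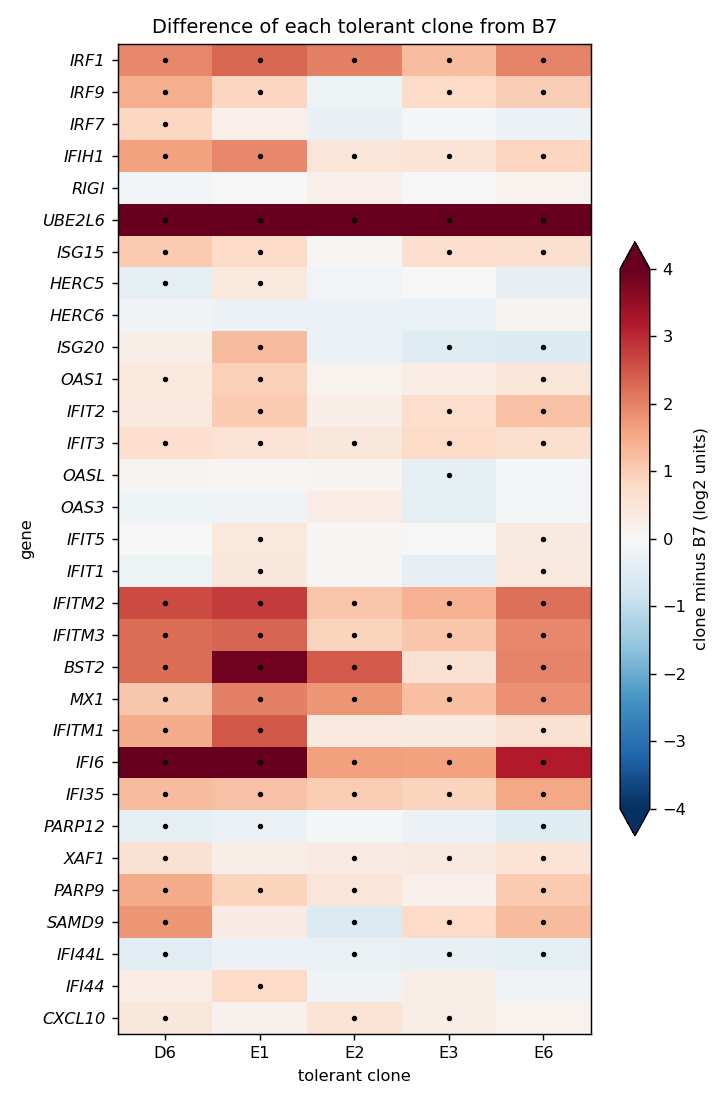
Difference of each tolerant clone from B7 for the 31 kept genes (log2 units, red higher and blue lower than B7, colours saturated beyond 4). A dot marks an array-level limma adjusted p under 0.05. UBE2L6 is dark in all 5 columns, IFI6 in D6 and E1, and BST2 in E1, while PARP12 and IFI44L are pale blue.

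The tolerant clones differed among themselves in these genes, which does not use the level of B7. The moderated F test called 25 of 31, but it called 73% of all genes. By size, 13 of the 31 had a range of at least 1 log2 unit over the 5 tolerant clone means, against 19.2% of all genes, and the median range was 0.89 against 0.59. The 13 include BST2, IFIH1, IFITM1 and SAMD9, which were kept only through tolerant clones. SAMD9 was undetected in E2 and IFITM1 in E3, so for these the filter itself favours a wide range. E1 was the highest tolerant clone for 16 of the 31 members, where it was highest for 22.6% of all genes. The 16 include IFIT1, IFIT5 and IFI44, which only E1 detected on both arrays. These genes were kept only through E1, so their place in this count follows from the filter. E3 was the lowest for 11 members and E2 for 10, against 15.2% and 26.8% of all genes. The clones did not keep 1 order, however. BST2 was higher by 3.25 ± 0.12 log2 units in E1 than in E3 (array-level adjusted p = 2.32e-08) and was also higher in E2 than in E3 by 1.83 ± 0.12 (adjusted p = 1.04e-06). IFI6 stood at 8.4 in E2 and 8.38 in E3, a difference from E2 of -0.02 ± 0.12 (adjusted p = 0.909). IRF9 was higher in E3 than in E2 by 0.96 ± 0.11 (adjusted p = 4.9e-05), and MX1 was higher in E2 than in D6 by 0.69 ± 0.12 (adjusted p = 0.000697), whereas IFI6 and IRF9 were lower in E2 than in D6 (by -2.55 ± 0.12 and -1.64 ± 0.11, adjusted p = 7.34e-08 and 5.29e-07).

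Genes around the response were read from 4 further lists of known pathway genes. Of 9 interferon genes with a probe, 8 were detected on no array: IFNB1, IFNA1, IFNA2, IFNK, IFNL1, IFNL2, IFNL3 and IFNG. IFNE passed the limit on the 2 B7 arrays and on 1 of the tolerant ones, at 5.99 in B7 against 5.55 to 5.8 in the tolerant clones (difference -0.28 ± 0.19, adjusted p = 0.383).

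Of 14 kept receptors, kinases and their brakes, 1 was called higher and 0 lower (all genes 1.4% and 1.44%), with 5 higher and 1 lower at an unadjusted p under 0.05 (all genes 12.4% and 12.8%). IFNGR1, the ligand-binding chain of the interferon gamma receptor, read 9.95 and 10.04 in B7, 12.74 and 12.67 (D6), 12.84 and 12.82 (E1), 11.49 and 11.57 (E2), 12.67 and 12.58 (E3), and 12.6 and 12.6 (E6). All 10 tolerant arrays lay above B7, with E2 lowest. The difference was 2.47 ± 0.47, or 5.53-fold (adjusted p = 0.0466), and the call was lost without D6, E1, E3 or E6 (adjusted p of 0.0845 to 0.11) and under 3 of the processing alternatives (0.0516 to 0.0676). Its partner chain IFNGR2 differed by 0.92 ± 0.29 (adjusted p = 0.122). For the type I receptor, IFNAR2 differed by 1.06 ± 0.21 (adjusted p = 0.0508) and IFNAR1 by 0.18 ± 0.28 (adjusted p = 0.715). For the type III receptor, IL10RB, which also serves IL-10, differed by 1.61 ± 0.33 (adjusted p = 0.0518) and IFNLR1 by -0.07 ± 0.3 (adjusted p = 0.904). The kinases JAK1 and TYK2 had clone means of 8.38 to 9.07 and 10.29 to 10.89 and were not called, and JAK2 had no kept probe. STAT3, which answers cytokines of the IL-6 family, differed by 1.43 ± 0.33 (adjusted p = 0.0697). SOCS1, a brake on JAK kinases, stood at 6.55 in B7 against at 5.51 to 6.28 in the tolerant clones, where 2 of 10 arrays detected it (difference -0.76 ± 0.29, adjusted p = 0.173).

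Of 12 kept genes for nucleic acid sensing, 0 were called by limma in either direction, with 0 higher and 3 lower at an unadjusted p under 0.05, where 12.4% and 12.8% of all genes were. The 3 were TRIM25, the ubiquitin ligase that activates RIGI (-1.26 ± 0.25, adjusted p = 0.0507), CGAS, the DNA sensor (-1.09 ± 0.34, adjusted p = 0.116), and MAVS, the mitochondrial adaptor (-0.95 ± 0.29, adjusted p = 0.116). A second kept probe for MAVS differed by only -0.2, with E2 at 6.94 above B7 at 6.66. Of 30 other interferon-induced genes kept, 1 was called higher and 0 lower (all genes 1.4% and 1.44%), with 8 and 2 at an unadjusted p under 0.05 (all genes 12.4% and 12.8%). GBP1, a guanylate-binding protein strongly induced by interferon gamma, read 6.29 and 5.61 in B7, 9.93 and 9.98 (D6), 10.21 and 10.18 (E1), 9.16 and 9.1 (E2), 10.4 and 10.32 (E3), and 9.11 and 9.26 (E6). Only 1 of the B7 arrays detected it, and every tolerant array lay well above both. The fitted difference was 3.81 ± 0.5 (adjusted p = 0.017). Its mean in B7, 5.95, lay at the detection limit, so no fold is given. Its other probe, at 5.49 in B7, differed by 2.96. Its relative GBP2 differed by 4.13 ± 0.89 (adjusted p = 0.0613), with E2 at 9.48 and the other tolerant clones at 11.04 to 12.1, against 7.05 in B7. The clone-level medians were 0.37 for the receptor list, 0.11 for sensing and 0.24 for the other induced genes, against 0 for all genes. The sensing list and the other induced genes include genes kept only through tolerant clones, in the counts as in the medians. Of the 8 higher at an unadjusted p under 0.05, these were GBP1, PARP10 and UBA7, detected on 1, 0 and 0 B7 arrays. The filter itself favours such genes being higher than B7.

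**Figure D4:**
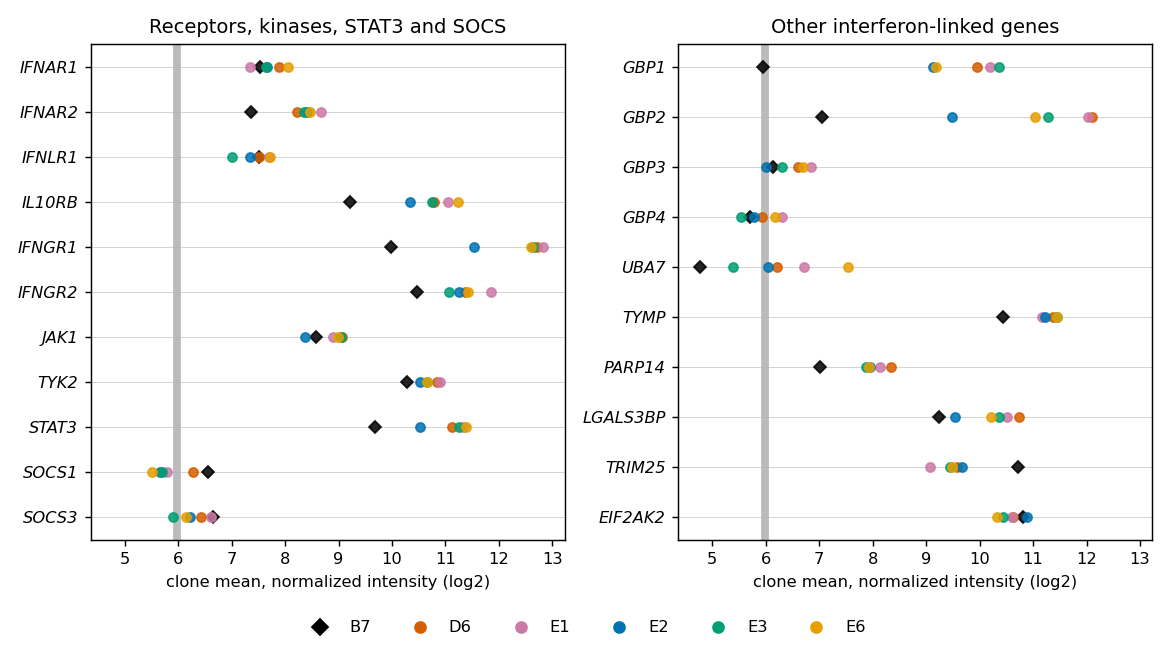
Clone means of 21 genes from the pathway lists. The x axes are normalized intensity on a log2 scale, diamonds are B7, circles are the tolerant clones, and the grey band spans the lowest detected level on the 12 arrays. IFNGR1 and GBP1 are the genes of these lists called higher in the tolerant clones, TRIM25 stands above the tolerant clones in B7, and GBP3 and GBP4 lie near the band.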

How the data were processed

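RNA of 12 samples was extracted with the mirVana kit, labelled as biotin cRNA and hybridised to Illumina bead arrays with 47229 probes, per the labels' protocols. The deposited scanner values are linear intensity with background removed beforehand, as values below 0 show, and the deposited detection p-value columns hold no values (0 cells filled). The authors' processed intensity values, used as an alternative, are linear and floored at 20. The authors' scanner software, normalization and background method are not given in the sources used here.

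Scanner signal was corrected by normexp (offset 16), quantile normalized and log2-transformed (R 4.3.3, limma 3.58.1); the deposited file holds no log2 values. A probe counted as detected above 2.33 times the root mean square of the array's negative values (1-sided p 0.01) and 21912 probes, detected by both arrays in 1 clone or more, were kept. The brightest kept probe stood for its gene, and 12250 genes were tested. The main test compared 5 tolerant clone means with that of B7 (4 residual degrees of freedom). A fit of the 12 arrays (6 residual degrees of freedom) compared each tolerant clone with B7 and, by a moderated F, the tolerant clones with one another. All tests are 2-sided, with p-values adjusted by Benjamini-Hochberg over all genes within each comparison and called under 0.05. They were tested on simulated data.

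The members and lists were chosen with earlier results of these data known. Values on all arrays are given for called members, the 10 members with the widest range over the clones, the regulators, and the brightest and dimmest kept member. The other members are given by clone means. From the pathway lists the called genes, ligands, receptors and kinases are given, and GBP2, STAT3, SOCS1, UBA7, TRIM25, CGAS and MAVS were chosen after their values were seen. Same-numbered arrays of different clones did not deviate together after normalization (correlations of -0.0248 to 0.0543), and the samples were fitted as unpaired. Quantile normalization removes a shared shift in intensity, so these correlations cannot show whether same-numbered arrays were processed together. Alternatives were other background corrections and scalings, no filter, the authors' values, probe means, an intensity trend, blocks, and dropping single arrays or tolerant clones. The number of arrays limits the precision.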

Additional observations from a re-analysis of the deposited data

Results flagged for a closer look

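In 3 members 1 tolerant clone lay above B7 and another below it at the array level, and the clones differed from each other in the same limma fit. ISG20 was higher in E1 than in E3 by 1.77 log2 units (adjusted p = 9.26e-07) and than in E6 by 1.83 (adjusted p = 9.12e-07). HERC5 was higher in E1 than in D6 by 0.79 (adjusted p = 0.00134), at clone means of 6.89 and 6.09, both close to background. SAMD9 was higher than in E2 by 2.3 in D6 (adjusted p = 3.18e-07), by 1.32 in E3 (adjusted p = 3.47e-05) and by 1.8 in E6 (adjusted p = 3.5e-06). SAMD9 was below detection in both B7 and E2, so its place below B7 in E2 is an order of values near background. No tolerant clone stood apart from the other 4 by Dixon's criterion in any of the 31 members (0 of 31, where chance gives about 5%).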

How the results depend on the processing

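Of 26 alternatives for the clone-level test, none called a member lower. The count called higher was 1 in place of 2 with no further background correction, a normexp offset of 50, median scaling and the authors' values, and 8 with the clone as a random block (consensus correlation 0.813). Leaving out clones or arrays gave 1 to 6, with 6 without E2 and 1 without D6, E1 or E6 or the second E3 array. UBE2L6 was called in every alternative run (adjusted p up to 0.0354), as was GBP1 (up to 0.0436). IRF1 was not called in 8 of 26 (adjusted p of 0.000749 to 0.111 over all) and IFNGR1 not in 7 (0.000354 to 0.11), while GBP2 was called in 4 (0.000602 to 0.127). The members with all 10 tolerant arrays above B7 numbered 12 to 17, and those below 2, except 1 with the authors' values. The count of all genes called was 171 higher and 176 lower, and ran from 32 to 1048 and from 49 to 1077. The members' median difference ran from 0.24 to 0.8. Median scaling moved the median of all genes to -0.2, and IRF7 then stood at -0.14, as it stood at -0.11 without D6. With each clone against B7, the counts called higher stayed within 1.5 times. Those called lower became 0 in E1 and 1 in E2 with no further background correction and with no filter, where E6 gave 5, 1 in E2 with offset 50, and 2, 5, 5 and 5 in E1, E2, E3 and E6 with median scaling. They were 0, 0 and 1 in E1, E2 and E3 with the authors' values, 0, 1 and 1 with an intensity trend, and 2 in E1 with the mean over probes. With arrays left out they ranged from 0 to 2 in E1, 0 to 3 in E2, 1 to 5 in E3 and 2 to 4 in E6. The replicate block gave 19, 21, 13, 17 and 19 higher in D6, E1, E2, E3 and E6, and 24 by the F test, in place of 25, and moved no count by over 1.5 times. The cause of these changes was not tested. Genes near background, where small signals set the differences, and the single sensitive clone limit the precision.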

Other observations

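Of the other interferon-induced genes, PARP14 had a clone mean of 7.01 in B7 against 7.88 to 8.34 in the tolerant clones (adjusted p = 0.0613), and TYMP, thymidine phosphorylase, 10.44 and 11.17 to 11.45 (adjusted p = 0.0613). A second, dimmer kept probe for TYMP differed by -0.04. CASP1, the protease that matures IL-1 beta, was undetected in B7 and reached 7.56 in E1 and 7.07 in D6, at least 1.5-fold above B7 over the tolerant clones (adjusted p = 0.262). EIF2AK2, the kinase activated by double-stranded RNA, stood at 10.81 in B7 against 10.32 to 10.89 in the tolerant clones (adjusted p = 0.585). These genes were chosen after their values were seen.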
